A study of Mus musculus with 2 samples.

Results

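The loci of 8 transcription factors that direct blood formation were examined in a methylated DNA immunoprecipitation (MeDIP) array study of mouse embryonic fibroblasts (MEFs). These were Runx1, Gata2, Tal1, Spi1, Fli1, Erg, Lmo2 and Myb. For each gene, all genomic probes of the array were taken whose start lay in a window around the gene on the mm9 build, 20 to 234 kb long. This gave 11 of the 21518 tiled regions measured on the array, and 91 of its 174638 genomic probes. A tiled region is a set of probes whose starts lie less than 1000 bp apart. Of the 91 probes 79 were kept, because their input signal was well above background on both arrays. The other 12 were too dim in the input, and none carried an outlier flag.

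The study held 2 arrays, 1 per condition. The untreated sample was DNA of C57BL/6 MEFs from E14.5 embryos, after magnetic removal of cells carrying CD45, CD31, CD41 or c-Kit, markers found on blood progenitors. The remaining cells were grown on feeder MEFs arrested with mitomycin. The treated sample came from MEFs prepared in the same way and kept for 2 days in medium with 100 µM thymidine, the deoxynucleoside of thymine, and its source label names a CD45 sort. Cy5 marked the DNA precipitated with an antibody against 5-methylcytosine and Cy3 the input DNA. The labels describe the input of the treated array both as MEFs and as thymidine-treated cells, so which culture gave it is not settled. Removal of feeder cells before DNA extraction is not described in the labels. The array measured no RNA, so the identity of the cells could not be checked against marker expression.

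These factors form an interlocking set in blood stem and progenitor cells. TAL1, a basic helix-loop-helix factor, is joined by the adaptor LMO2 to GATA factors on DNA. RUNX1 is needed for the emergence of blood stem cells from hemogenic endothelium, and the ETS factors FLI1 and ERG often bind the same enhancers. In fibroblasts most of these genes are silent or low, but FLI1, ERG, TAL1, LMO2 and GATA2 are also used by endothelial cells. Vertebrate promoters rich in CpG, the dinucleotide that carries most DNA methylation, are as a rule unmethylated even when silent. A MeDIP ratio rises with the number of methylated CpGs on the fragment, so a stretch with few CpGs gives a low ratio whatever its methylation.

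RefSeq promoter sequences (GRCm38.p6, 250 bases before to 50 after the start) were at hand for 5 of the 8 genes, with 10 starts in all. Their CpG content bears on how the ratios can be read, and it differed widely within and between genes. Among 32851 promoters of this length 94.6% held at least 1 CpG and the median number was 7. CG reads the same on both strands. The distal start of Runx1 held 2 CpGs, fewer than most promoters, and its proximal start held 35, more than 93.0% of promoters. Tal1 had 11 at its first and 22 at its second start. The starts of Gata2 held 32 and 29, and those of Erg 16, 2 and 4. Myb had 40, the most of the 10. The sequences below are those of Runx1, whose starts are the most unlike, of Tal1, whose starts lie close together, and of Myb, each 5′ to 3′ on the strand of the gene with every CpG in capitals. In GRCm38.p6 they lie at chr16:92826025-92826324 (minus strand) for the distal and chr16:92697280-92697579 (minus strand) for the proximal Runx1 start. The Tal1 starts lie at chr4:115056176-115056475 and chr4:115057561-115057860 (plus strand) and that of Myb at chr10:21160935-21161234 (minus strand).
Runx1 distal start: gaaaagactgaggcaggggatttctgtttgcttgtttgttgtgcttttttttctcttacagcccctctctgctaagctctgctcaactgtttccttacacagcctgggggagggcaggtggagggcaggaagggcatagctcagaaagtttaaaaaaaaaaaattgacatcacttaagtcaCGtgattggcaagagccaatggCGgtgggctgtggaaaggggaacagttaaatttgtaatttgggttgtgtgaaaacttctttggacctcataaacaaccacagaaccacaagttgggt
Runx1 proximal start: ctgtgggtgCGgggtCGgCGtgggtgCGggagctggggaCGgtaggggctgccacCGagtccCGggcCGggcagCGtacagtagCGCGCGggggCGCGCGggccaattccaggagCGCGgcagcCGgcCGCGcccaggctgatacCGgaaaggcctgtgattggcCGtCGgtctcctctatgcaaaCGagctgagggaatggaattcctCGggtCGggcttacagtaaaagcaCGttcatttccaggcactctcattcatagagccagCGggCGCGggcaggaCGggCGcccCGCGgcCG
Tal1 first start: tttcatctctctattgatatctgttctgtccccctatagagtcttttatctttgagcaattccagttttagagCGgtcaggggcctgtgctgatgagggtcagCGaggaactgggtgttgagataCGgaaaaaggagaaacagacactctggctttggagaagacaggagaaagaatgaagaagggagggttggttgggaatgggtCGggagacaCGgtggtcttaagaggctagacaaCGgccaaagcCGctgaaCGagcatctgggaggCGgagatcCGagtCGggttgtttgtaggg
Tal1 second start: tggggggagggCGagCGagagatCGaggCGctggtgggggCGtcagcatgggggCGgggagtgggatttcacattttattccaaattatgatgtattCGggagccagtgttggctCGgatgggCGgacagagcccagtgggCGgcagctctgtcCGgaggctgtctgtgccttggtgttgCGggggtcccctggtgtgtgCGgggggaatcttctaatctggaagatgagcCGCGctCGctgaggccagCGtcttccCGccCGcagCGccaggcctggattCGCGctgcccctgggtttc
Myb start: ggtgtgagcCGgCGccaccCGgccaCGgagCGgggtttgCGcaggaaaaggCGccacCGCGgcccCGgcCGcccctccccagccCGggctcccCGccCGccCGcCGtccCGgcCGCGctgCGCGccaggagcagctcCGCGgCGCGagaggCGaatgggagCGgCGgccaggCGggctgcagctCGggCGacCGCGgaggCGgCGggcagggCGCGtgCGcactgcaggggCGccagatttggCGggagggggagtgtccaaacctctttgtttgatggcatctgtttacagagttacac
These positions are of another build than those of the probes and cannot be set against them. The bases of the promoters that the probes cover were therefore not determined. What can be compared is spacing within each build. The starts of Runx1 lie 128745 bp apart in RefSeq, and the first probes of the 2 tiled regions in its window lay 128742 bp apart. The region with the higher coordinates is on the side of the distal start, since the gene runs on the minus strand. The starts of Tal1 lie 1385 bp apart, and its window held 1 region of 2745 bp, the longest of the 11. The windows were 5.77 to 7.39 kb longer than the RefSeq genes, so they reach past the ends of the genes. Next to Spi1, the RefSeq table has Mybpc3, the gene of a cardiac myosin binding protein, with 2.4 kb between them. The second region of the Spi1 window began 38.3 kb into a window of 40 kb, and whether it belongs to Spi1 or to Mybpc3 was not settled.

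The first question was what level of precipitate signal these loci had on each array. The level is log2(Cy5/Cy3) minus the array's median of that ratio over its genomic probes, and that of a region or locus is the median over its kept probes. Over all 79 probes the median was 0.06 in untreated and 0.09 in thymidine-treated cells, against 0.08 and 0.05 over the 142569 kept probes of the array. The SD over the probes of the loci was 0.81 on both arrays, against 0.98 and 0.87 over the array. By their median level the 8 loci together were close to the array as a whole. Each condition had 1 array, so differences could not be set against replicate spread or tested, and SDs in the text are over probes. A part of the technical error is given by control probes printed several times, using only spots well above background in both channels. Over 19 such probes with 211 spots the median SD was 0.09 for untreated and 0.12 for treated DNA, and 0.14 for the difference. Of the 79 probes of the loci 62 were as bright in both channels, so these SDs do not cover the dim ones. The scanner software's own error of the difference had a median of 0.35 over the 79 probes and 0.34 over the array. Both measures are for single spots, not for medians of regions.

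Probes of high and low ratio were present in the loci about as often as elsewhere. In untreated cells 5 of 79 probes (6.33%, exact 95% interval 2.09% to 14.2%) had a level of at least 1, where 8.79% of all kept probes did. At -1 or less were 12 (15.2%, interval 8.1% to 25%), against 13.7% of the array. In treated cells 7 probes (8.86%, interval 3.64% to 17.4%) were at or above 1, against 8.66%, and 9 (11.4%, interval 5.34% to 20.5%) at or below -1, against 10.5%. The intervals cover the counting of probes only, and neighbouring probes share DNA fragments, which were 200 to 1000 bp long. All 9 low probes of the treated array were also low on the untreated one. Of the 12 low probes in untreated cells only 3 had a precipitate signal well above background on both arrays. For the other 9 the ratio is bounded by the scanner's background and its size is not interpretable.

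**Figure D1:**
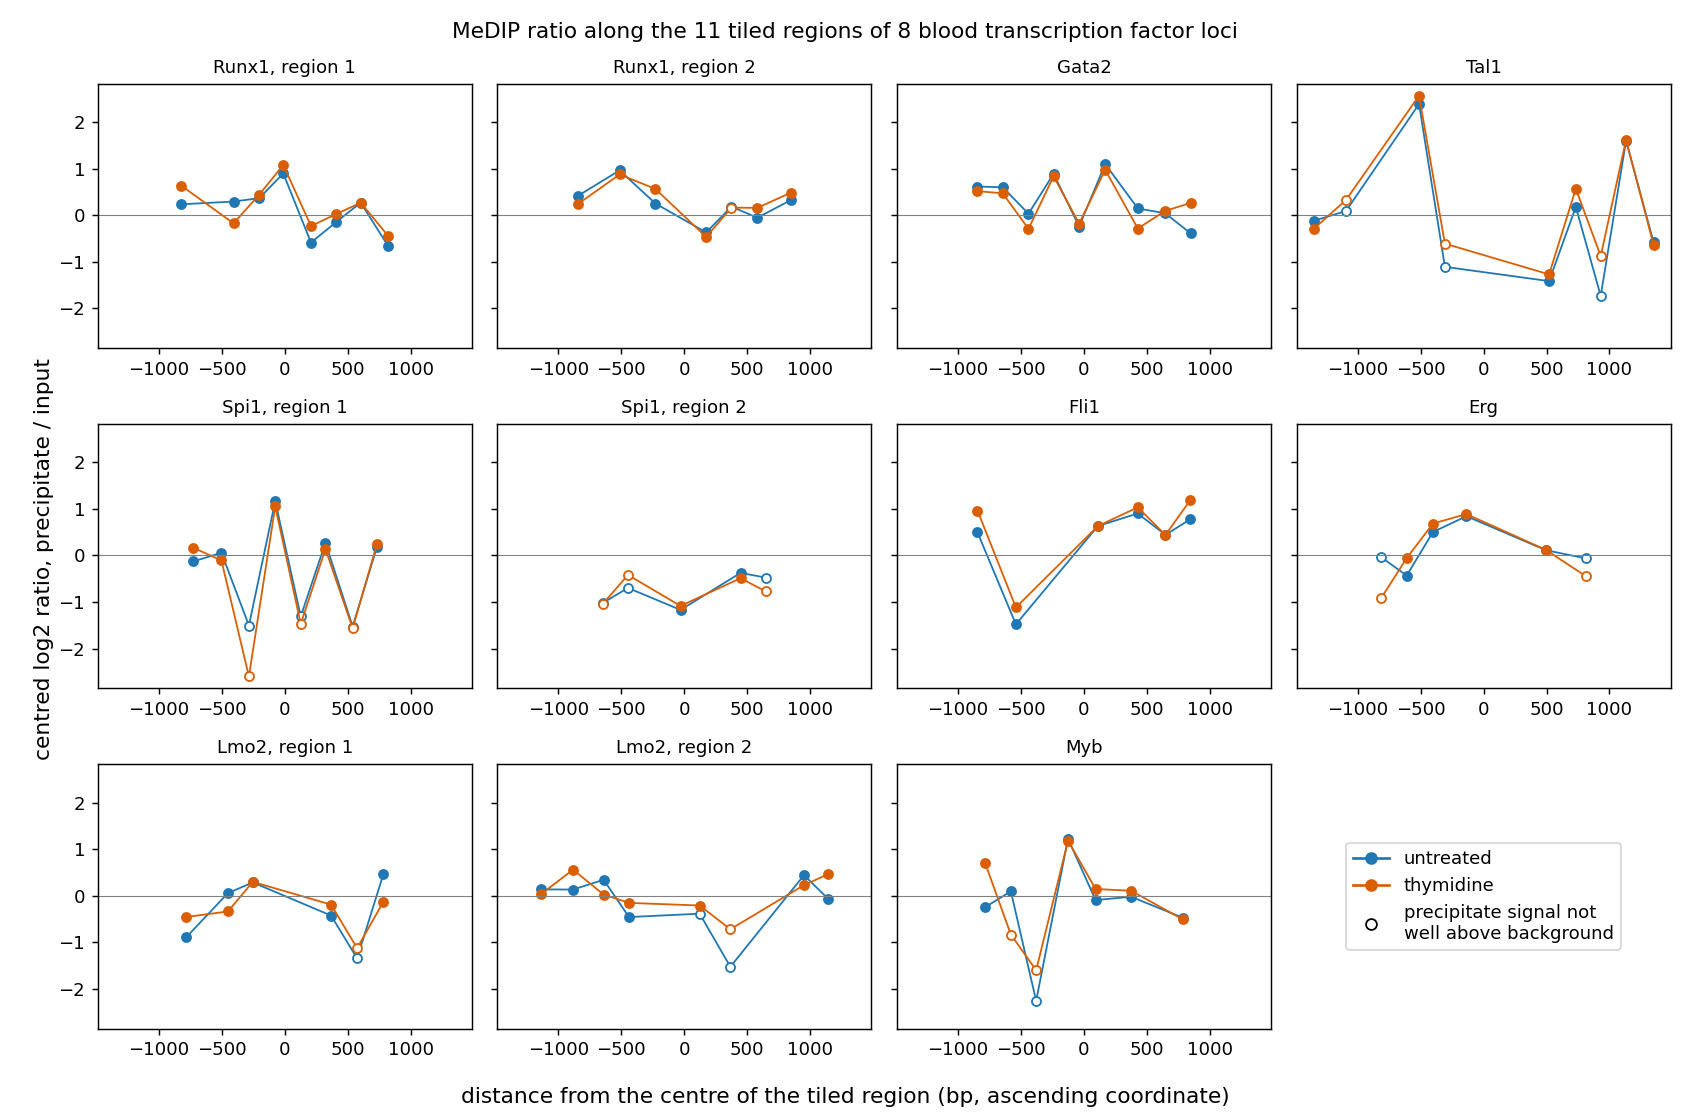
Centred log2 ratio (y) of each kept probe against its distance in bp from the centre of the tiled region (x), for the 11 regions, in untreated (blue) and thymidine-treated (orange) cells; open circles had a precipitate signal not well above background. The arrays follow each other in most regions, with peaks at single probes in Tal1 (2.39 and 2.57), Spi1 region 1 (1.17 and 1.05) and Myb (1.22 and 1.18).

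Runx1, whose product is required for blood stem cells to arise, was measured in 2 regions on chromosome 16. The region at chr16:92697084-92698772, on the side of the CpG-rich proximal start, had a level of 0.26 in untreated and 0.15 in treated cells (8 of 9 probes kept). Its untreated probes ran from -0.66 to 0.90. The region at chr16:92825826-92827569, on the side of the CpG-poor distal start, had levels of 0.25 and 0.24 (7 of 8 probes kept), with untreated probes from -0.37 to 0.97. None of the 15 kept Runx1 probes was at -1 or less on either array, against 13.7% of the array's kept probes in untreated and 10.5% in treated cells. Whether Runx1 differs from the array in this was not tested. A left-out probe of the first region, from 92697280 to 92697331, was below -1 on both arrays. Its input was dim on the treated array and its precipitate signal was dim on both, so the size of its ratio is not interpretable. Over both regions the untreated Runx1 level was 0.25, but 0.15 with normexp background correction, 0.01 with loess and -0.01 in the authors' deposited table, so its sign is not settled.

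Gata2 encodes a zinc finger factor of stem and progenitor cells. Its window held 1 region at chr6:88147373-88149115, with all 9 probes kept and all well above background in both channels. The level was 0.15 (SD 0.51) in untreated and 0.27 (SD 0.47) in treated cells. Its highest untreated probe, from 88148391 to 88148435, had 1.1 and 0.98, and the lowest untreated value was -0.39. Across its probes the arrays correlated at 0.81. The treated level was near 0 with normexp (-0.0006) and raw medians (0.01), 0.04 in the authors' deposited table and 0.07 with loess, so no order of the 2 arrays is drawn from it.

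Tal1 had the widest range of the loci. Its region at chr4:114727958-114730702 had a level of -0.12 (SD 1.36) in untreated and -0.29 (SD 1.26) in treated cells over 9 of 13 probes. The SD within the untreated region was above that of 91.6% of the 21518 measured regions of the array. The probe from 114728788 to 114728847 had 2.39 and 2.57, the highest of the 79 on each array and above 99.9% of the array's untreated kept probes. A second high probe, from 114730440 to 114730484, had 1.60 and 1.62. Between them lay low probes, such as that from 114729826 to 114729875 at -1.41 and -1.27, which was measured in both channels. The 4 probes that were too dim in the input also lay between the 2 high probes or next to the first, so the middle of the region rests on few values. With those dim probes included the Tal1 level was 0.09 and 0.33, so its sign is not settled.

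Lmo2, the adaptor that bridges TAL1 and GATA factors, had 2 regions on chromosome 2. That at chr2:103796905-103798517 had levels of -0.19 and -0.27 in untreated and treated cells (6 of 8 probes kept), and that at chr2:103808415-103810745 had 0.03 and 0.02 (8 of 9 kept). A probe of the first region from 103797858 to 103797902 had 1.94 and 1.74, but its input was not well above background on either array and it was left out. Over the Lmo2 probes measured in both channels the level was 0.13 and 0.02, against -0.01 and -0.14 over all kept ones.

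Among the ETS factors, Fli1 had the highest and Spi1 the lowest median of the 8 loci. Fli1, an ETS factor of blood and endothelium, had levels of 0.56 (SD 0.89) in untreated and 0.80 (SD 0.85) in treated cells at chr9:32348467-32350202, over 6 of 7 probes. These medians lay at percentiles 92.4 and 98.5 of the array's regions, computed for the main setting only. The treated Fli1 level was 0.51 with normexp and with loess, 0.52 as a mean over probes and 0.55 in the authors' deposited table. It was 0.85 with both arrays given equal spread. On the untreated array 5 of the 6 probes lay between 0.44 and 0.90, and 1 lay at -1.48. With loess within arrays the untreated Fli1 level was 0.26 and that of Erg 0.53, and as means over probes it was 0.30 against 0.31 for Gata2, so Fli1 was not first in untreated cells under either choice. Erg, a close relative of Fli1, had levels of 0.04 (SD 0.45) and 0.03 (SD 0.68) over 6 probes at chr16:95751473-95753160, near the middle of the array. Over its 4 probes measured in both channels it was 0.31 and 0.40. Its window of 234 kb held this 1 region, although RefSeq lists 3 starts for the gene.

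Spi1 encodes PU.1, an ETS factor that drives myeloid and B cell fates. Its first region, at chr2:90935784-90937294, had levels of -0.03 (SD 0.99) and 0.02 (SD 1.22) over 8 probes. The probes of this region alternated. In untreated cells the 3 lowest had -1.53, -1.51 and -1.31, all with a precipitate signal not well above background, while a probe lying between them had 1.17. The second region, at chr2:90957270-90958610, was the lowest of the 11, with -0.70 (SD 0.34) and -0.77 (SD 0.31) over 5 probes, at percentiles 7.42 and 4.98 of the array's regions. Only 2 of its 5 probes were well above background in both channels, at -1.17 and -0.37 in untreated cells. Over both regions the Spi1 level was -0.48 and -0.49. Without the second region, which may belong to Mybpc3, it was -0.03 and 0.02, and Spi1 was then no longer the lowest of the loci. Over its 7 probes measured in both channels it was 0.06 and 0.14.

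Myb, a factor that keeps blood progenitors dividing, had levels of -0.10 (SD 1.04) and 0.11 (SD 0.95) at chr10:20880332-20881947, with all 7 probes kept. Its probes ran from -2.26 to 1.22 in untreated and from -1.61 to 1.18 in treated cells. The low end, a probe from 20880731 to 20880789, had a dim precipitate signal on each array. The high end was a probe from 20880991 to 20881035, which was measured in both channels. The treated Myb level was below 0 with normexp (-0.15), raw medians (-0.15), loess (-0.18), the authors' deposited table (-0.15) and the mean over probes (-0.12), so its sign is not settled.

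In untreated cells the order of the loci from high to low was Fli1, Runx1, Gata2, Erg, Lmo2, Myb, Tal1 and Spi1. In treated cells it was Fli1, Gata2, Runx1, Myb, Erg, Lmo2, Tal1 and Spi1. With 1 array per condition the order has no replicate spread to be judged by, and the SDs over probes do not supply one. Across the 79 probes the arrays correlated at r = 0.90, against 0.93 over the kept probes of the array. These correlations are across probes, which share the array design and the base composition of each probe, and are no measure of replication.

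**Figure D2:**
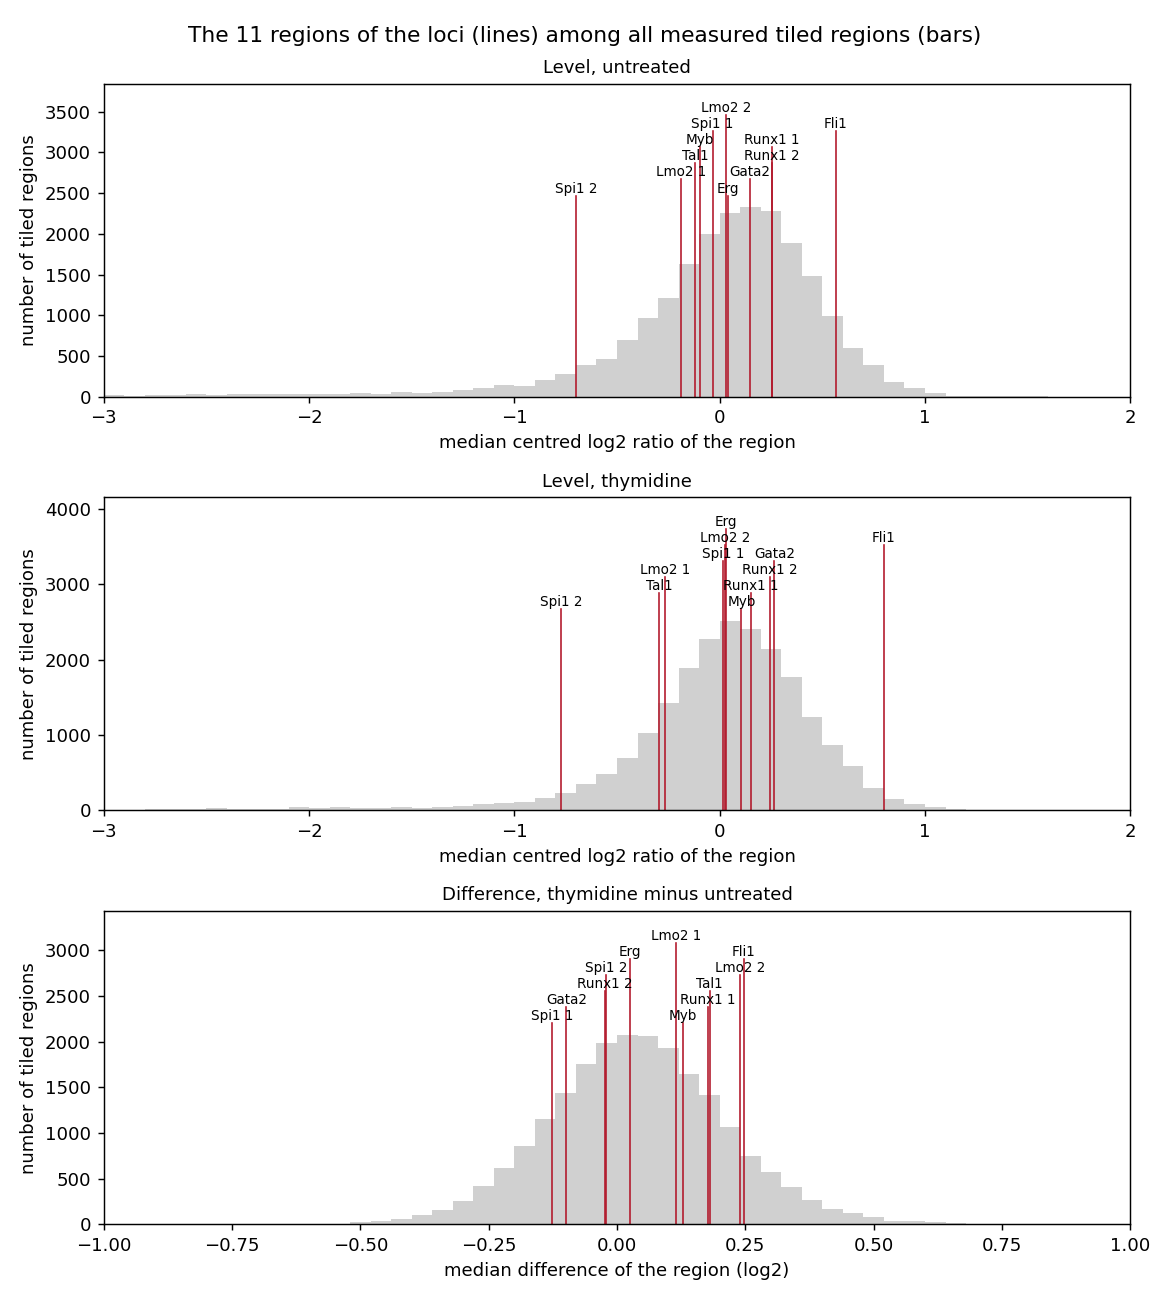
Number of measured tiled regions of the array (y, bars) by median level in untreated and in treated cells and by median difference (x, log2 scale), with a line for each of the 11 regions of the loci; 102 untreated and 60 treated regional levels lie outside the axis. Fli1 lies toward the high end of both levels (0.56 and 0.80) and the second Spi1 region toward the low end (-0.70 and -0.77), while all 11 differences lie between -0.13 and 0.25.

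The second question was whether the loci differed after thymidine. None of the 11 regions was higher or lower by the rule used, which asks for a median difference of 0.5 or more either way and for 80% of kept probes on that side. Over the array 0.465% of regions were higher and 0.0929% lower by this rule, so a count of 0 among 11 regions sets the loci apart in no way. It allows a share of up to 28.5% (exact 95% interval). At a size of 0.3 the count was again 0 in both directions, against 3.67% higher and 1.15% lower over the array. The median difference over the 79 probes, treated minus untreated, was 0.05 (SD 0.36), against 0.04 (SD 0.36) over the array. It was above 0 in 44 probes (55.7%), against 54.4% of the array, and below 0 in 35 (44.3%), against 45.6%.

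The difference of a region or locus is the median of its probes' own differences, not the difference between its levels, and the signs can disagree. In Tal1, Erg, the first Runx1 region and both Lmo2 regions the level was lower after thymidine although this median was above 0. In Gata2 and the first Spi1 region it was the reverse. By region the differences ran from -0.13 to 0.25, inside the range of -0.29 to 0.39 that holds the middle 95% of the array's regions. Fli1 had the highest, 0.25 (SD 0.21), with 4 of 6 probes higher after thymidine. The second Lmo2 region followed with 0.24 (SD 0.39, 5 of 8 probes higher), then Tal1 with 0.18 (SD 0.31, 7 of 9) and the first Runx1 region with 0.18 (SD 0.27, 6 of 8). Myb had 0.13 (SD 0.60, 4 of 7), the first Lmo2 region 0.12 (SD 0.40, 4 of 6) and Erg 0.03 (SD 0.45, 4 of 6). On the other side were the first Spi1 region at -0.13 (SD 0.40, 6 of 8 probes lower) and Gata2 at -0.10 (SD 0.31, 6 of 9 lower). The second Runx1 and the second Spi1 region both had -0.02. In Fli1 the precipitate signal alone differed by 0.06 and the input by -0.09, as medians over the 6 probes. Its ratio difference was 0.08 once the trend with level was removed.

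In both ETS relatives other than Fli1 the difference was small or of the other sign, with 0.03 in Erg and -0.11 over both Spi1 regions. The partners Tal1, Lmo2 and Gata2 had locus medians of 0.18, 0.20 and -0.10. The Tal1 value was 0.08 over probes measured in both channels, -0.01 from the precipitate signal alone and 0.27 with equal spread. The Lmo2 value was 0.01 over probes measured in both channels and 0.0075 in the authors' deposited table, and that of Gata2 was 0.01 when both arrays were given equal spread. The zero point differs between these choices. The array's median difference was 0.01 over probes measured in both channels, -0.05 in the authors' table and 0.05 with equal spread.

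Single probes moved more than regions. A difference of at least 0.5 was seen in 6 of 79 probes (7.59%), against 9.78% of the array, and one of -0.5 or less in 4 (5.06%), against 5.28%. All 6 higher probes had a lower input in the treated sample. Of the 4 lower probes 3 had a higher input. The input is the denominator of the ratio, and over the array the ratio and input differences correlated at -0.79. Such counts thus arise in part by construction, and the share over the array was not computed. Of the 6 higher probes 3 were measured in both channels, and of the 4 lower probes 1 was. The other 3 higher probes lay in Tal1, Lmo2 and Myb and the other lower ones in Spi1, Myb and Erg, and the size of their difference is not interpretable. None was higher by 1 or more, where 0.941% of the array was, and 1 was lower by 1 or more, where 0.114% was. That one lay in the first Spi1 region from 90936230 to 90936280, with levels of -1.51 and -2.60. Its precipitate signal was not well above background on either array, so no fold is given.

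The probe with the highest difference in the loci was at the edge of the Myb region, from 20880332 to 20880376. Its level was -0.25 in untreated and 0.71 in treated cells, a difference of 0.96 with a scanner error of 0.36. The input was lower by 0.69 and the precipitate higher by 0.23, each relative to the array. The next probe of the region, from 20880537 to 20880581, had a lower ratio after thymidine, of no interpretable size, since its precipitate was well above background on the untreated array only. Their starts lie closer together than the fragments are long at most. At the far end of the Gata2 region the probe from 88149068 to 88149115 had -0.39 and 0.27, a difference of 0.65 with a scanner error of 0.30, while 6 of the 8 others there were lower after thymidine. In the second Lmo2 region the last probe, from 103810701 to 103810745, was higher by 0.53. In Fli1 the first probe, from 32348467 to 32348511, was higher by 0.47, and in Lmo2 the first probe of the first region, from 103796905 to 103796952, by 0.44.

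The lowest differences among probes measured in both channels were smaller. The last probe of the first Lmo2 region, from 103798473 to 103798517, had 0.46 in untreated and -0.13 in treated cells, a difference of -0.59 with a scanner error of 0.29. In the first Runx1 region the probe from 92697500 to 92697544 had a difference of -0.47, with an input higher by 0.44 and a precipitate differing by -0.07. In Gata2 the probes from 88148650 to 88148694 and from 88147780 to 88147827 had -0.43 and -0.32, and in Lmo2 the probe from 103797238 to 103797283 had -0.40. By the scanner software's own error 2 of 79 probes (2.53%) were higher by more than 2 errors, those at the edges of Myb and Gata2. This compares with 1.51% of the array. The Lmo2 probe at -0.59 was the 1 (1.27%) lower by more than 2 errors, against 1.42%.

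**Figure D3:**
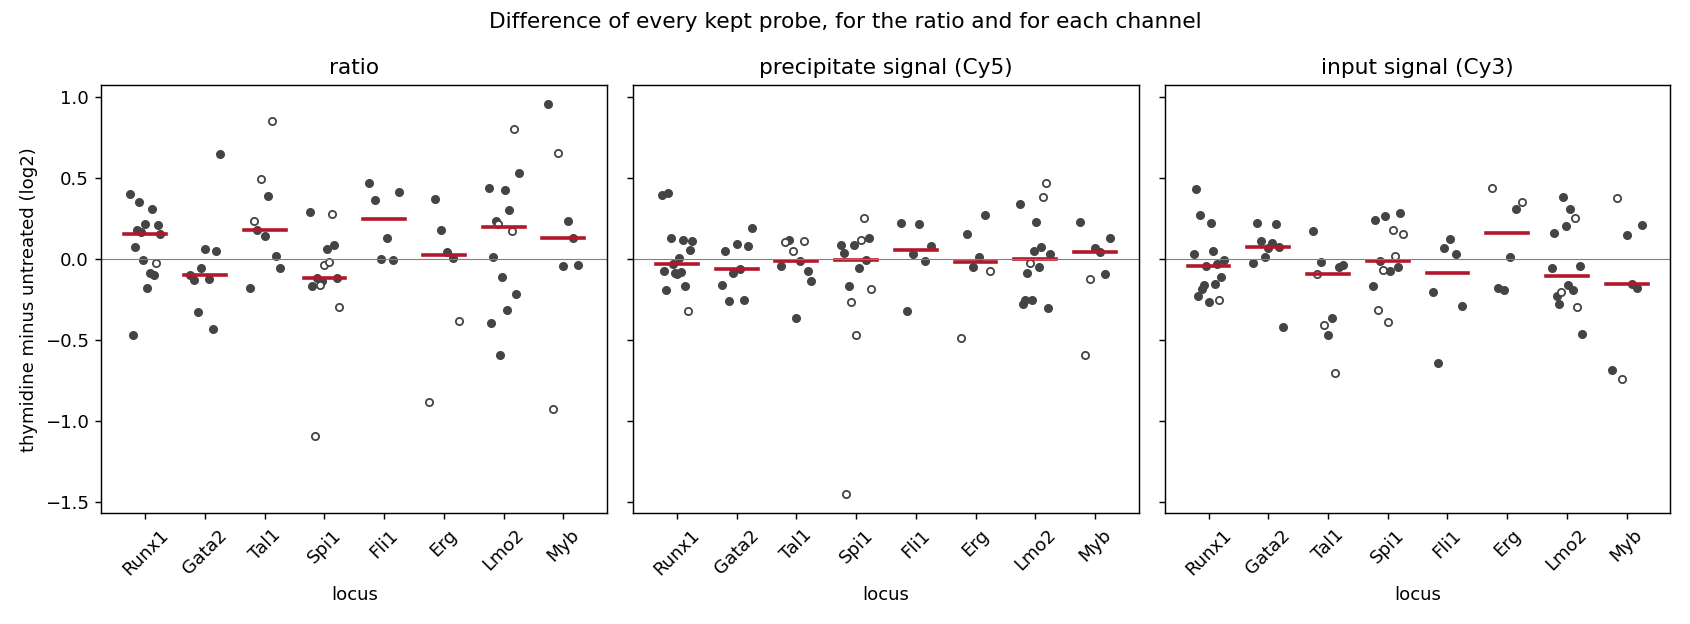
Difference of each kept probe, treated minus untreated on a log2 scale (y), by locus (x), for the ratio, precipitate and input. Each channel's difference was centred on its median over the array's kept probes. The ratio was centred on all genomic probes of each array, and its median difference over the array's kept probes was 0.04. Red bars are locus medians and open circles were not well above background in both channels on both arrays. The locus medians of the precipitate signal lie between -0.06 and 0.06, and those of the ratio, with this other zero point, run from -0.11 to 0.25.

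Seen channel by channel, the locus medians of the precipitate difference ran from -0.06 in Gata2 to 0.06 in Fli1. The input medians ran from -0.15 in Myb to 0.16 in Erg. Across the 79 probes the ratio difference correlated at -0.69 with the input difference and at 0.68 with the precipitate difference, while the 2 channels correlated with each other at 0.06. Both correlations with the ratio arise in part by construction, because the ratio is made of these channels, and the array as a whole had -0.79 and 0.59. Their part in the differences of single loci was not tested. The difference also depends on level across the array. The 11 probes of the loci with a mean level of -1 or less had a median difference of 0.14, where such probes of the array had 0.35, and the 68 others had 0.03, against 0.01. Most of these 11 low probes had a precipitate signal not well above background, so the size of their difference is not interpretable.

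**Figure D4:**
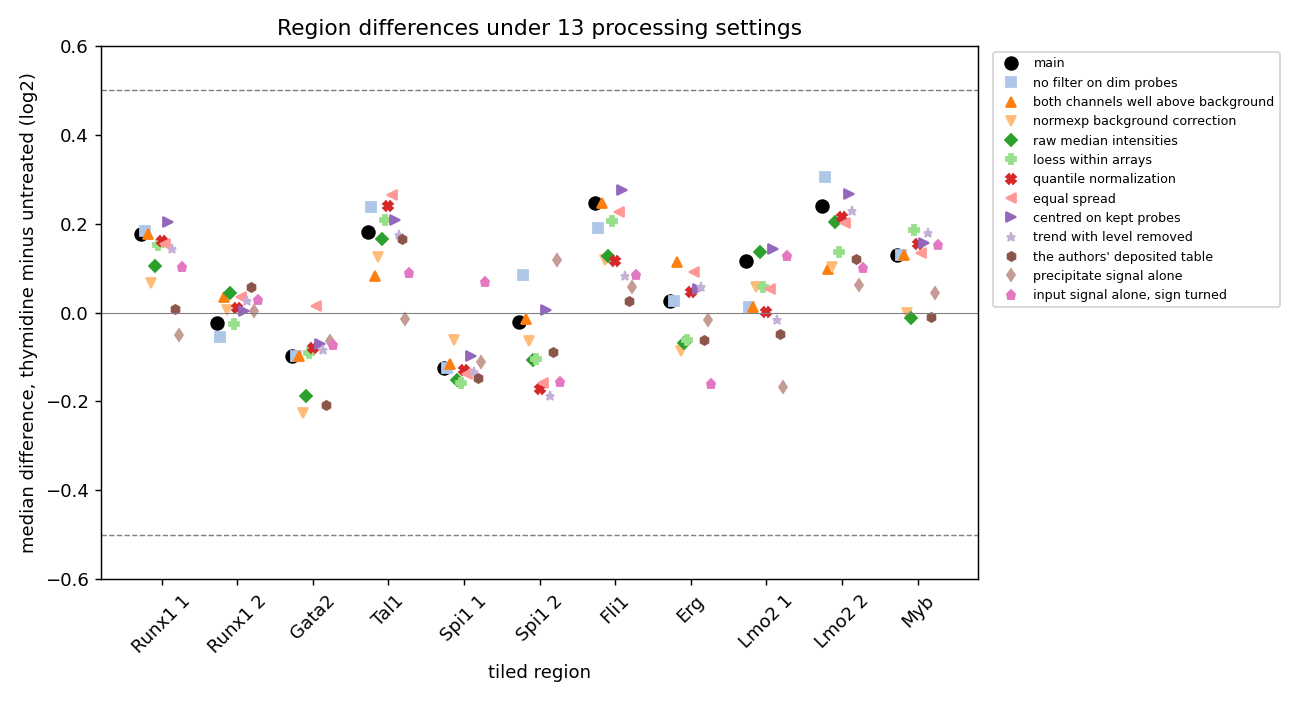
Median difference, treated minus untreated on a log2 scale (y), of each of the 11 regions (x) under 13 processing settings, the main one in black; dashed lines mark the size of 0.5 used for counting. Every value lies between the dashed lines, and the Fli1 and second Lmo2 regions are the 2 that stay above 0 under all 13.

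In the authors' deposited table of the same 2 arrays the differences were 0.03 for Fli1, 0.12 for the second Lmo2 region, 0.17 for Tal1 and -0.21 for Gata2. Over the array's kept probes the median difference was -0.05 in that table and 0.04 in the main setting. The zero points thus differ, and these sizes are not set against each other. Signs below are taken against 0, while the array's own median difference ran from -0.05 to 0.07 over the settings. Under the 13 settings the Fli1 difference ran from 0.03 to 0.27 and that of the second Lmo2 region from 0.06 to 0.30. Gata2 ran from -0.23 to 0.01, with 1 setting above 0. The first Spi1 region ran from -0.16 to 0.07, the Tal1 region from -0.01 to 0.27 and the first Runx1 region from -0.05 to 0.20, and each changed sign under 1 setting. Myb, the first Lmo2 and the second Spi1 region changed sign under 3. The second Runx1 region changed sign under 10 settings and Erg under 6, and no direction is given for them.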

How the data were processed

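The loci and the rules used were chosen with earlier results of these data known. DNA of 2 samples was measured on 1 two-colour Agilent tiling array each. Scanning software was Feature Extraction 11.0.1.1 by Agilent, and positions are on mm9, per the file headers. Each deposited intensity is either a signal already background-subtracted and dye-scaled by that software or a raw spot or background median. Deposited log10 ratios matched the processed signals within 1e-06 at 97.4% and 96.9% of probes, and their errors are those of the scanner software per the file headers. The authors' deposited table was taken as log2 values. Its scale and centring stay unknown. Its column medians were -0.01 and -0.02, and it correlated at 0.88 and 0.83 with the scanner ratios, in the same direction.

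From these, log2(Cy5/Cy3) was centred on each array's median over 174638 genomic probes, after 5827 control spots were left out. Probes with no outlier flag and an input well above background on both arrays were kept (142569). Having 1 array per group limits the precision, and no p-value was computed. Slide, scan and CD45 sort cannot be told apart from the group. The planned list of other blood transcription factors was not analysed here, since the files name no genes. Named singly, by rule, are in each locus the regions with the highest and lowest mean ratio over both arrays and the largest difference, and over all loci the 5 highest and 5 lowest probe differences measured in both channels. Other probes named were chosen after their values were seen. Alternatives used limma 3.58.1 (normexp with offset 50, loess) and Python 3.11.15, and simulated shifts were used to test the region rule.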

Additional observations from a re-analysis of the deposited data

How the results depend on the processing

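No paired analysis was possible because each group has 1 array and no result comes from a test. The counts of 0 regions higher and 0 lower held under all alternatives run, including gaps of 500 and 2000 bp, at least 5 kept probes and a size of 0.3. The median difference of the 8 loci ran from -0.03 in the authors' table to 0.08 with centring on kept probes. It turned sign in that table and, at -0.0068, from the precipitate signals alone. Over the array's kept probes the median difference was -0.046 in the authors' table and 0.066 with centring on kept probes. For the precipitate signals alone it was 0 over the array by centring. The median level of the 8 loci was 0.16 in untreated cells with both channels well above background, -0.042 with loess and -0.055 as a mean over probes. Over the array these values were 0.22, -0.0099 and -0.076. In treated cells the level of the loci was -0.048 with normexp, -0.055 with raw medians and -0.050 with loess. Over the array it was -0.043, -0.048 and -0.03 in this order. Probes at or above 1 in untreated cells numbered 2 with normexp, 3 with raw medians, 1 in the authors' table and 15 at a threshold of 0.5. In treated cells they numbered 2, 2, 1 and 20 in this order, and 4 with loess. Probes at or below -1 in untreated cells numbered 3 with both channels measured, 2 with normexp, 6 with raw medians, 7 with loess and 0 in the authors' table. In treated cells they numbered 3, 2, 4, 5 and 0, and 17 at -0.5 or less. Leaving out the second Spi1 region, chosen after seeing the data, lowered the low probes to 10 and 7. The share of the array's probes under each of these choices was not computed. The scale of the ratios also differs between settings, so these counts are not read as a result about the loci. Of the 8 locus differences, 3 changed sign from the precipitate signals alone, 2 each with normexp, raw medians, the input alone and the authors' table, and 1 each with loess, equal spread and the mean. Depth is not defined for arrays, and dim precipitate signals limit the low ratios.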
